A study of Mus musculus with 141 samples.

Results

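The effect of interleukin-6 and transforming growth factor beta (IL6 and TGFb) on naive mouse CD4 T cells was measured after 2 h of culture, as the difference between 3 RNA-seq libraries from cultures with both cytokines and 3 libraries from cultures without added cytokines. These 6 libraries are all those of courses 1 to 3 at 2 h in these groups, out of 141 in the series. A course is the replicate number in the library's title, and each course gave 1 library to each group. The cells were CD4+CD25-CD44lo T cells, sorted out of C57BL/6 spleens and lymph nodes. Cells of both groups were activated with plate-bound anti-CD3 at 0.5 µg/ml and anti-CD28 at 5 µg/ml, so both share the activation. The treated cultures held IL6 at 20 ng/ml and TGFb at 1 ng/ml together, so the effect of either cytokine alone cannot be told apart. Naive cells of the same courses, taken at 0 h before culture, gave 3 further libraries and are used as the level before activation. The labels call the libraries biological replicates. They do not say whether courses came from separate mice, nor the age of the mice.

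IL6 binds its receptor and the shared chain gp130, which activates JAK kinases. The kinases phosphorylate mainly STAT3, and STAT dimers then enter the nucleus and bind DNA. TGFb signals through a pair of receptor kinases that phosphorylate SMAD2 and SMAD3, which act with SMAD4. In mouse CD4 T cells the 2 cytokines together start differentiation towards Th17 cells, which secrete IL17.

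The genes that rose include known targets of STAT and interferon regulatory factors. Promoters of 6 of them are shown for the DNA letters that these families are known to bind. The 6 were picked by hand and not by size of change. Several of the largest rises, among them Tbx21, Elovl6, Mxd1 and Batf, had no match to these letters in the windows searched. Not every tested gene had a window. Shares over all tested genes are given below. Capitals mark matches to TTCNNNGAA, the core of a STAT site, and to GAAANNGAA, the core of an interferon response element, with N for any base and both strands searched. Each sequence gives the 200 bases before the RefSeq gene start in GRCm38.p6, read 5′ to 3′ on the gene's strand. Socs3 lies on the minus strand at chr11:117969367-117969566. Irf1 at chr11:53769814-53770013, Irf8 at chr8:120736158-120736357, Gbp2 at chr3:142620463-142620662, Gbp7 at chr3:142530136-142530335 and Igtp at chr11:58199356-58199555 lie on the plus strand.
Socs3: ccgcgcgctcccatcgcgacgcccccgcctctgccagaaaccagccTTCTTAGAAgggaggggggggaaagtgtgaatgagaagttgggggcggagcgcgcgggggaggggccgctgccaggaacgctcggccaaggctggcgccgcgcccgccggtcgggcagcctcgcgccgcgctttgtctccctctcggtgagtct
Irf1: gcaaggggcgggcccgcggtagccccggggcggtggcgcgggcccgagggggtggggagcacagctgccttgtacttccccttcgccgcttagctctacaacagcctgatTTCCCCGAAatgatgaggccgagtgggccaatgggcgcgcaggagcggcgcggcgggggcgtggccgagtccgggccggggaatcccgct
Irf8: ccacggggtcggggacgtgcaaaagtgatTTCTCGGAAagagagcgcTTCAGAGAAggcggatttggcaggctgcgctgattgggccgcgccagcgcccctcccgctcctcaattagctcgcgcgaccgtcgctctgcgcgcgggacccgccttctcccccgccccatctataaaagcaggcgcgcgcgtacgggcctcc
Gbp2: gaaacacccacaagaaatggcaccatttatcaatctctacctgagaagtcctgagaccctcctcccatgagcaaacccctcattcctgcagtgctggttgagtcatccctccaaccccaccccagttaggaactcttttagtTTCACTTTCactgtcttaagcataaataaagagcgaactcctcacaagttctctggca
Gbp7: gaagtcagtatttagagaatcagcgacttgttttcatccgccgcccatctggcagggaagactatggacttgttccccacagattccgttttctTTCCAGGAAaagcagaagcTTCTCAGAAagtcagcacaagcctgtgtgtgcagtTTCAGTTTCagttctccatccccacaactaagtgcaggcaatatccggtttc
Igtp: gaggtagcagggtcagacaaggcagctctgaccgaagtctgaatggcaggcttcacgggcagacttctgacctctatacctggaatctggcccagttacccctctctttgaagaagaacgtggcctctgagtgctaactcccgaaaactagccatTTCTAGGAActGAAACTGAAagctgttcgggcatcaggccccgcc
The STAT letters start 154 bases before the start of Socs3, 90 before Irf1 and 171 and 153 before Irf8. Gbp7 holds the STAT letters at 106 and 87 bases before its start and the interferon letters at 52. In Igtp they start at 45 and 34, and in Gbp2 the interferon letters stand at 58. A match is a description of the sequence and not a measured binding site.

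The 6 libraries held 19.3 to 28.9 M reads each, against 16 to 47.1 M over all 141. Values are CPM, a gene's reads per M reads of its library, and 1 read was worth 0.0346 to 0.0518 CPM. All levels below are CPM divided by a TMM factor, which corrects for differences in RNA composition. That factor ran from 0.83 to 0.9 and was lower with IL6 and TGFb in each course. It was 0.8299, 0.8672 and 0.8786 in courses 1, 2 and 3, against 0.8637, 0.8844 and 0.8997 without cytokines. The library of course 1 with IL6 and TGFb had both the most reads, 28.9 M, and the lowest factor. The sorted cells carried the helper T cell genes Cd4, Cd3e and Trac in all libraries. Genes of other cells were low in both groups. The highest sum was that of red cell and platelet markers, at 31.5 to 41.3 CPM with IL6 and TGFb and 30.6 to 45.4 CPM without. Within that list Pf4 and Ppbp of platelets were at 0 in all 6 libraries, so other members gave its reads. Reads of the 37 mitochondrial genes in the table were 0 in every library, so RNA quality could not be read from them.

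Within 2 h, 1900 genes were higher and 2267 were lower with IL6 and TGFb than without cytokines, of 12003 tested (adjusted p under 0.05, limma with the course as a term). That is 15.8% higher and 18.9% lower, the background for the counts of every list below. Most changes were small: 2746 of the called genes moved by under 0.5 on the log2 scale. Large changes were mostly rises, with 318 genes higher and 97 lower by at least 1 on the log2 scale, and 92 higher against 1 lower by at least 2. The median over all tested genes was -0.005. Rises made up 45.6% of the calls, against 35.5% with plain CPM without TMM scaling. The TMM factors used here were estimated within each time, a choice made after seeing the data, and with factors taken over all 141 libraries at once rises made up 36.6%. The total was 2516 without course 2, 2755 with DESeq2 and 1578 with limma without the course term, and 1508 genes were called by limma with and without that term, edgeR and DESeq2 alike. In 2936 of the 4167 called genes the libraries of the groups did not overlap. The same count over all 12003 tested genes was not made, so this number has no background to be weighed against. The levels are per library, so fewer cells of a type and less RNA per cell cannot be told apart.

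**Figure D1:**
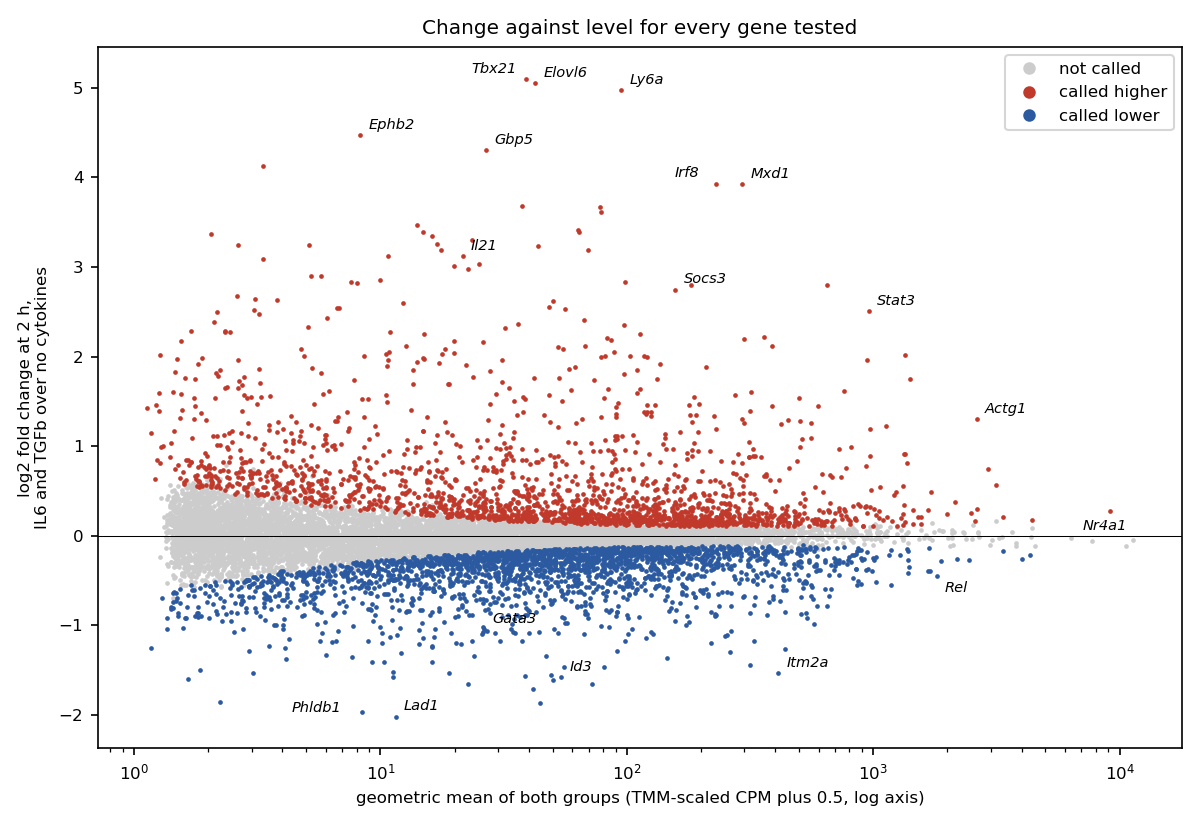
Each point is 1 of the 12003 genes tested, with the geometric mean level of both groups on the x axis (TMM-scaled CPM plus 0.5, log axis) and the log2 fold change at 2 h, IL6 and TGFb over no cytokines, on the y axis. Red points were called higher (1900), blue points lower (2267) and grey points not called; Tbx21 at 5.10 and Elovl6 at 5.05 lie at the top and Lad1 at -2.02 at the bottom.

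Genes of IL-6 receptor and JAK-STAT signalling rose more often than they fell. Of 13 tested members, 8 were higher and 3 were lower, and the list's median log2 fold change was 0.66, against -0.005 over all tested genes. The receptor chain, STAT2, STAT3 itself and the kinase JAK3 were all among the rises. Summed over the list, the level was 6220 to 7860 CPM with IL6 and TGFb, against 3510 to 4270 CPM without cytokines. Without the course term, 7 were higher and 1 was lower.

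Stat3, which encodes the main transcription factor of IL6 signalling, had 2629, 2318 and 1912 CPM in courses 1, 2 and 3 with IL6 and TGFb, against 439.8, 396 and 365 CPM without cytokines. All 3 treated libraries lay far above all 3 controls, and above the naive mean of 433 CPM. The log2 fold change was 2.51 ± 0.05 (SE, limma adjusted p = 1.12e-12). Il6st, the gene of gp130, had 875, 844 and 875 CPM with IL6 and TGFb, against 347, 349.6 and 387 CPM without. Its libraries did not overlap, and the change was 1.26 ± 0.04. Il6ra, the IL6-binding chain, had 409, 393 and 279 CPM with IL6 and TGFb, against 208, 204 and 192 CPM without. The treated libraries were higher, while naive cells had more still, with a mean of 517 CPM.

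Jak3, a kinase that serves receptors with the common gamma chain, had 293, 343 and 345 CPM with IL6 and TGFb, against 102, 121 and 132 CPM without. That difference was 1.47 on the log2 scale (limma adjusted p = 4.31e-11), and the treated level was close to the naive mean of 293 CPM. Jak2 was higher by 0.33. Tyk2, another JAK kinase, was lower by 0.67, at a mean of 42.8 CPM with IL6 and TGFb against 68.2 CPM without. Stat2, which carries type I interferon signals, had 137, 104 and 109 CPM with the cytokines, against 20.2, 17.6 and 20.2 CPM without, a change of 2.56. Its libraries did not overlap. Stat4, which carries IL12 signals, was lower by 0.54, with overlapping libraries.

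Known STAT3 targets and feedback genes followed, with 15 of 21 higher and 3 lower and a median of 0.82. Leaving out the course term gave 13 higher and 2 lower. Socs3, which blocks signalling from gp130, had 561, 352 and 316 CPM with IL6 and TGFb, against 67.9, 44.4 and 66.8 CPM without. The treated libraries were all higher, and naive cells lay between the groups at 146, 211 and 246 CPM. The log2 fold change was 2.75 ± 0.11 (limma adjusted p = 8.07e-10). Socs1, a broader inhibitor of JAK kinases, averaged 988 CPM with IL6 and TGFb and 360.4 CPM without, a change of 1.45. Cish, a relative that dampens IL2 and TCR signals, was higher by 1.30.

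Batf, an AP-1 family factor required for Th17 differentiation in mice, had 171, 137 and 94.3 CPM with IL6 and TGFb, against 12.5, 9.65 and 7.52 CPM without. All treated libraries were higher, and in both groups course 1 was highest and course 3 lowest. The log2 fold change was 3.68 ± 0.06 (limma adjusted p = 8.06e-13). Bcl3, a nuclear partner of NF-kB p50, had 265, 225 and 144 CPM with IL6 and TGFb, against 26.03, 20.8 and 19.7 CPM without, and a change of 3.19 ± 0.09. Course 3 was the lowest library of each group. Hif1a, the oxygen-regulated factor that drives glycolytic genes, had 1426, 1328 and 1236 CPM with the cytokines, against 440.4, 427 and 427 CPM without. Its groups were far apart and the change was 1.62.

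Other STAT3-linked genes rose as well. Prdm1, which encodes the repressor BLIMP1, was higher by 1.98, Junb, an AP-1 factor, by 0.91, the kinase gene Pim1 by 0.49 and the survival gene Mcl1 by 0.34. The falls included Bcl6, the repressor of follicular helper T cells, at 279, 251 and 289.9 CPM with IL6 and TGFb, against 394, 381 and 391 CPM without. That is a log2 fold change of -0.51 ± 0.04 (limma adjusted p = 9.75e-07) with no overlap. Lif, an IL6 family cytokine, had 387, 252 and 236 CPM with the cytokines, against 649, 451 and 367 CPM without, and a change of -0.74. Its groups overlapped, and without the course term its adjusted p was 0.0824.

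**Figure D2:**
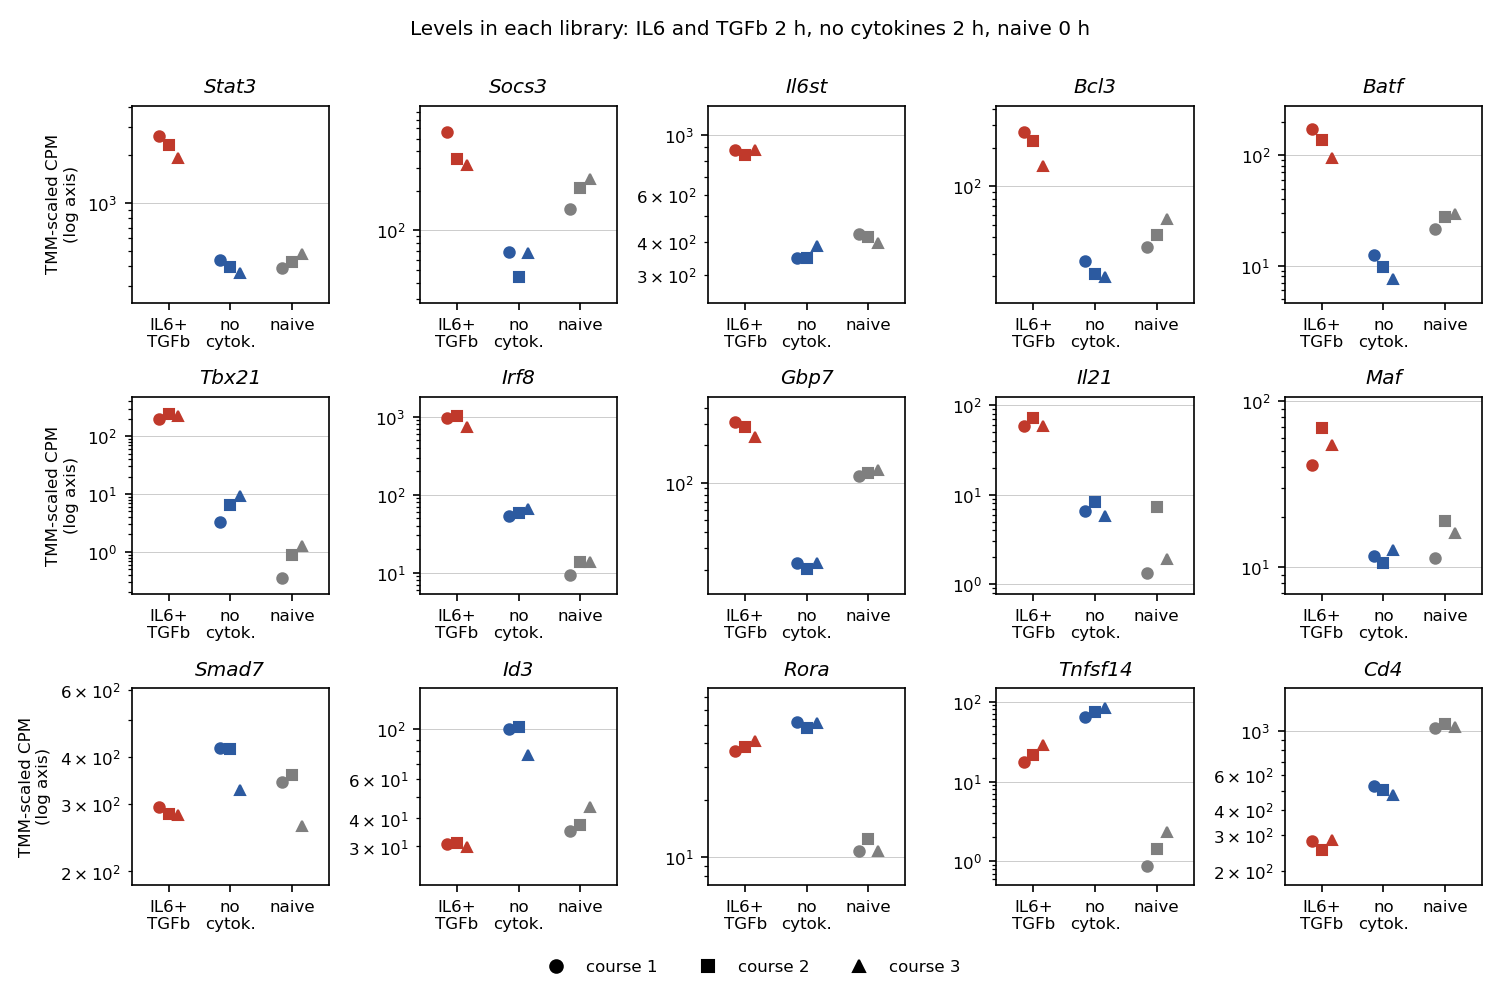
Each panel gives 1 gene's TMM-scaled CPM (log axis) in the 3 libraries with IL6 and TGFb (red), without cytokines (blue) and from naive cells (grey), with a marker shape for each course. Stat3 sits between 1912 and 2629 CPM with IL6 and TGFb, against 364.6 to 439.8 CPM without cytokines, while Id3, Tnfsf14 and Cd4 are lower with the cytokines in every course.

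Genes of the TGFb receptors and SMADs tended to be slightly lower. Of 11 tested members 7 were lower and 1 was higher, the median was -0.17, and the summed level was 1730 to 1990 CPM with IL6 and TGFb, against 1910 to 2250 CPM without cytokines. Leaving out the course term left 2 lower and none higher, and without TMM scaling 7 were lower and none higher. Without course 2, 4 were lower. Tgfbr1, the type I receptor, had 84.8, 97.0 and 93.1 CPM with the cytokines, against 108, 114 and 117 CPM without, a log2 fold change of -0.30 ± 0.05 (limma adjusted p = 0.000182). Its libraries did not overlap. Tgfbr2, the type II receptor, had 440.5, 304 and 262 CPM with IL6 and TGFb, against 517, 382 and 322 CPM without, a change of -0.29. Here the groups overlapped, each course being lower with the cytokines, and without the course term the adjusted p was 0.465. Tgfbr3, the co-receptor betaglycan, was lower by 0.62. Smurf1 and Smurf2, ubiquitin ligases that remove SMADs and receptors, were lower by 0.27 and 0.28, and neither was called without the course term (adjusted p = 0.102 and 0.193). Smad4 was lower by 0.17, called in the main comparison (limma adjusted p = 0.0129) but not without the course term (0.477). Smad3, a SMAD activated by TGFb receptors, was not called (change 0.14, limma adjusted p = 0.172).

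Among 15 TGFb target and feedback genes, 6 were higher and 4 lower, with a median of 0.12. A fit without courses called 4 higher and 4 lower. Smad7, the inhibitory SMAD that TGFb is known to induce, had 294, 284 and 282 CPM with IL6 and TGFb, against 422, 420.3 and 326 CPM without. All 3 treated libraries were lower, by 0.43 ± 0.06 on the log2 scale (limma adjusted p = 7.46e-05), and the naive mean was 321 CPM. Id3, an inhibitor of E proteins, had 30.8, 31.2 and 29.9 CPM with the cytokines, against 100.0, 102 and 76.7 CPM without. Its change of -1.58 ± 0.07 (limma adjusted p = 1.63e-09) brought the treated level below the naive mean of 39.3 CPM. Its relative Id2 moved the other way, higher by 0.77 ± 0.09. Pmepa1, a membrane protein that restrains TGFb signalling, had 296, 304 and 278 CPM with IL6 and TGFb, against 206, 227 and 213 CPM without, a change of 0.44. Ldlrad4, another feedback gene of the pathway, was higher by 0.75, and the transcription factor gene Bhlhe40 by 0.89. Itgav, an integrin chain that activates latent TGFb, was lower by 0.62. The SMAD corepressors differed, with Ski lower by 0.38 and Skil higher by 0.13. Without the course term the adjusted p of Skil was 0.552.

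Genes of the Th17 programme were mostly higher. Of 16 tested members 9 were higher and 2 lower, with a median of 0.85 that was 0.56 without course 1 and 0.51 without course 2, and without the course term 8 were higher and 1 lower. The factors Batf, Maf and Ahr were among the rises, while Rora was lower. Rora, a nuclear receptor that promotes Th17 differentiation in mice, had 36.5, 38.3 and 41.2 CPM with the cytokines, against 51.4, 48.2 and 51.0 CPM without, a change of -0.37 ± 0.06 (limma adjusted p = 0.000234). Both groups were far above its naive mean of 11.3 CPM. Irf4, a factor induced by T cell receptor signals, averaged 2872 CPM with IL6 and TGFb and 3089 CPM without, and was not called (limma adjusted p = 0.0852). Runx1 was lower by 0.36.

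Maf, which encodes c-MAF, had 41.5, 69.1 and 54.3 CPM with IL6 and TGFb, against 11.7, 10.6 and 12.7 CPM without. All treated libraries lay well above all controls, and the change was 2.16 ± 0.12 (limma adjusted p = 1.84e-08). Ahr, a ligand-activated factor needed for IL22 in Th17 cells, had 23.7, 28.6 and 19.5 CPM with the cytokines, against 6.73, 6.11 and 8.19 CPM without, a change of 1.69 ± 0.14. Il21, a cytokine that IL6 is known to induce through STAT3, had 58.5, 72.2 and 58.2 CPM with the cytokines, against 6.49, 8.22 and 5.77 CPM without. Its libraries were widely separated and the change was 3.12 ± 0.07 (limma adjusted p = 6.12e-12). Il1r1, the IL1 receptor of Th17 cells, had 3.62, 6.57 and 3.71 CPM with IL6 and TGFb, against 0.188, 0.616 and 0.876 CPM without. It was higher by 2.29, but it reached the 1 CPM needed for the test only in the libraries with IL6 and TGFb.

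The IL17 genes themselves were near the limit of the comparison. Il17f had 2.79, 19.9 and 5.25 CPM with IL6 and TGFb, against 1.51, 3.08 and 4.69 CPM without, so course 2 alone was high and the groups overlapped. Its call (1.12 ± 0.31, limma adjusted p = 0.0136) was lost without course 2 (0.194) and without the course term (0.308). Il17a was not called (change 0.48, limma adjusted p = 0.141). Il23r, Ccr6, Ccl20 and Il22 were below the level needed for the test.

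Regulators of other T cell fates mostly fell, with 9 of 15 lower and 5 higher and a median of -0.37, or -0.22 without course 3. A fit without courses called 4 lower and 4 higher. The largest rise of all tested genes was however in this group. Tbx21, the gene of T-bet, which directs Th1 differentiation, had 195, 245 and 219.6 CPM with IL6 and TGFb, against 3.34, 6.42 and 9.38 CPM without. All treated libraries were far above the highest control, and naive cells averaged 0.85 CPM. The log2 fold change was 5.10 ± 0.15 (limma adjusted p = 4.47e-11). Tox2, an HMG-box factor of follicular helper T cells, had 43.5, 54.8 and 39.1 CPM with the cytokines, against 2.78, 3.34 and 5.15 CPM without, a change of 3.47 ± 0.16. Runx3, a partner of T-bet in Th1 and CD8 T cells, was higher by 1.03, and Nfil3, a basic leucine zipper factor, by 0.70.

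Gata3, the Th2 factor, had 19.4, 15.1 and 19.03 CPM with IL6 and TGFb, against 44.3, 35.5 and 32.0 CPM without. All treated libraries were lower, by 1.04 ± 0.09 on the log2 scale (limma adjusted p = 1.08e-06), and both groups lay below the naive mean of 68.8 CPM. Zbtb7b, which encodes ThPOK and keeps the CD4 fate, was lower by 0.84. Eomes, a relative of T-bet, had a change of -0.85. It was not picked by the naming rule given under processing, which needs a call and 5 CPM or more, so its value is less certain. Tcf7, the gene of TCF1, was lower by 0.56, with overlapping libraries and an adjusted p of 0.105 without the course term. Foxp3, the factor of regulatory T cells, had 2.67, 5.07 and 7.31 CPM with the cytokines, against 2.31, 3.08 and 3.50 CPM without. It was called higher by 0.59 ± 0.16 (limma adjusted p = 0.013), but the groups overlapped and the call was lost without the course term (0.282).

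The clearest group was that of interferon-stimulated genes. All 27 tested antiviral genes were higher with IL6 and TGFb, by 0.48 to 3.39 on the log2 scale with a median of 1.69, and all 15 guanylate-binding and immunity-related GTPases were higher, by 1.58 to 4.30 with a median of 2.33. Background calls were 15.8% higher. With no course term, 26 of the antiviral genes and all 15 GTPases were called higher. When 1 course was left out, 24 to 25 antiviral genes and 13 to 14 GTPases were higher and none lower. Those fits still needed 1 CPM in 3 libraries, and genes short of it, such as Gbp11 without course 3, went untested and counted as not higher. Members of the GBP, IRG, TGTP, OAS and IFIT families are close in sequence, so the counting could have moved reads between relatives and single members are less certain than the group.

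Gbp5, a guanylate-binding protein that acts in defence against bacteria inside cells, had 178, 90.2 and 96.3 CPM with IL6 and TGFb, against 5.65, 5.24 and 5.31 CPM without. Course 1 was the highest treated library, and none came near the controls. The log2 fold change was 4.30 ± 0.13 (limma adjusted p = 5.27e-11). Gbp2 had 372, 229 and 244 CPM with the cytokines, against 20.5, 21.8 and 21.2 CPM without, a change of 3.67 ± 0.11. Gbp7, whose promoter carries both kinds of letters, had 306, 279 and 235 CPM with IL6 and TGFb, against 22.7, 20.3 and 22.6 CPM without. It changed by 3.61 ± 0.07 (limma adjusted p = 1.36e-12), and naive cells lay between the groups at 113, 119 and 126 CPM. Igtp, an immunity-related GTPase, had 209.9, 160.2 and 166 CPM with the cytokines, against 38.9, 34.3 and 40.9 CPM without, a change of 2.21. Its relatives Irgm1 and Iigp1 were higher by 2.52 and 3.34.

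Among the antiviral genes, Zbp1, a sensor of unusual nucleic acid helices, had 228, 191 and 201 CPM with IL6 and TGFb, against 19.1, 17.2 and 21.8 CPM without. Its groups were widely separated, with a change of 3.39 (limma adjusted p = 1.36e-12). Rtp4 had 62.0, 39.0 and 42.4 CPM with the cytokines, against 3.39, 3.85 and 4.95 CPM without, a change of 3.39. Oas2, which makes the 2'-5' oligoadenylates that activate RNase L, had 77.4, 76.8 and 61.4 CPM with the cytokines, against 5.41, 5.65 and 10.3 CPM without, a change of 3.30. Xaf1 had 29.8, 24.8 and 23.8 CPM with the cytokines, against 2.54, 3.03 and 4.12 CPM without, a change of 2.85. Each of these genes kept its groups well apart. Oas3, a relative of Oas2, was higher by 2.98 and Parp14, an ADP-ribosyltransferase, by 2.80. Ifit2, which binds viral RNA, was at the other end, with 20.9, 11.3 and 11.7 CPM with IL6 and TGFb against 9.70, 9.5 and 10.7 CPM without, a change of 0.48.

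These genes were also set beside naive cells. Each 2 h group was compared with the same 3 naive libraries, so the 2 comparisons share them and are given side by side only. Over all 12631 genes tested, 38.9% were higher and 42.2% lower than in naive cells with IL6 and TGFb, and 36.9% were higher and 42.3% lower without cytokines. Of the antiviral genes 10 were higher and 10 lower than in naive cells with IL6 and TGFb, while none were higher and 24 lower without cytokines. Of the GTPases 9 were higher and 2 lower with IL6 and TGFb, while none were higher and all 15 lower without cytokines. The summed level of the GTPases was 1470 to 1970 CPM with IL6 and TGFb, 257 to 297 CPM without cytokines and 963 to 1110 CPM in naive cells. For the antiviral genes it was 1820 to 2260 CPM, 489 to 574 CPM and 1620 to 1760 CPM in the same groups. Oas2 differed from naive cells by -0.14 with IL6 and TGFb and by -3.44 without cytokines, on the log2 scale. Gbp7 differed from naive cells by 1.19 with IL6 and TGFb and by -2.42 without cytokines. Ifit2 was below naive cells in both groups, by 2.68 with IL6 and TGFb and by 3.16 without.

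**Figure D3:**
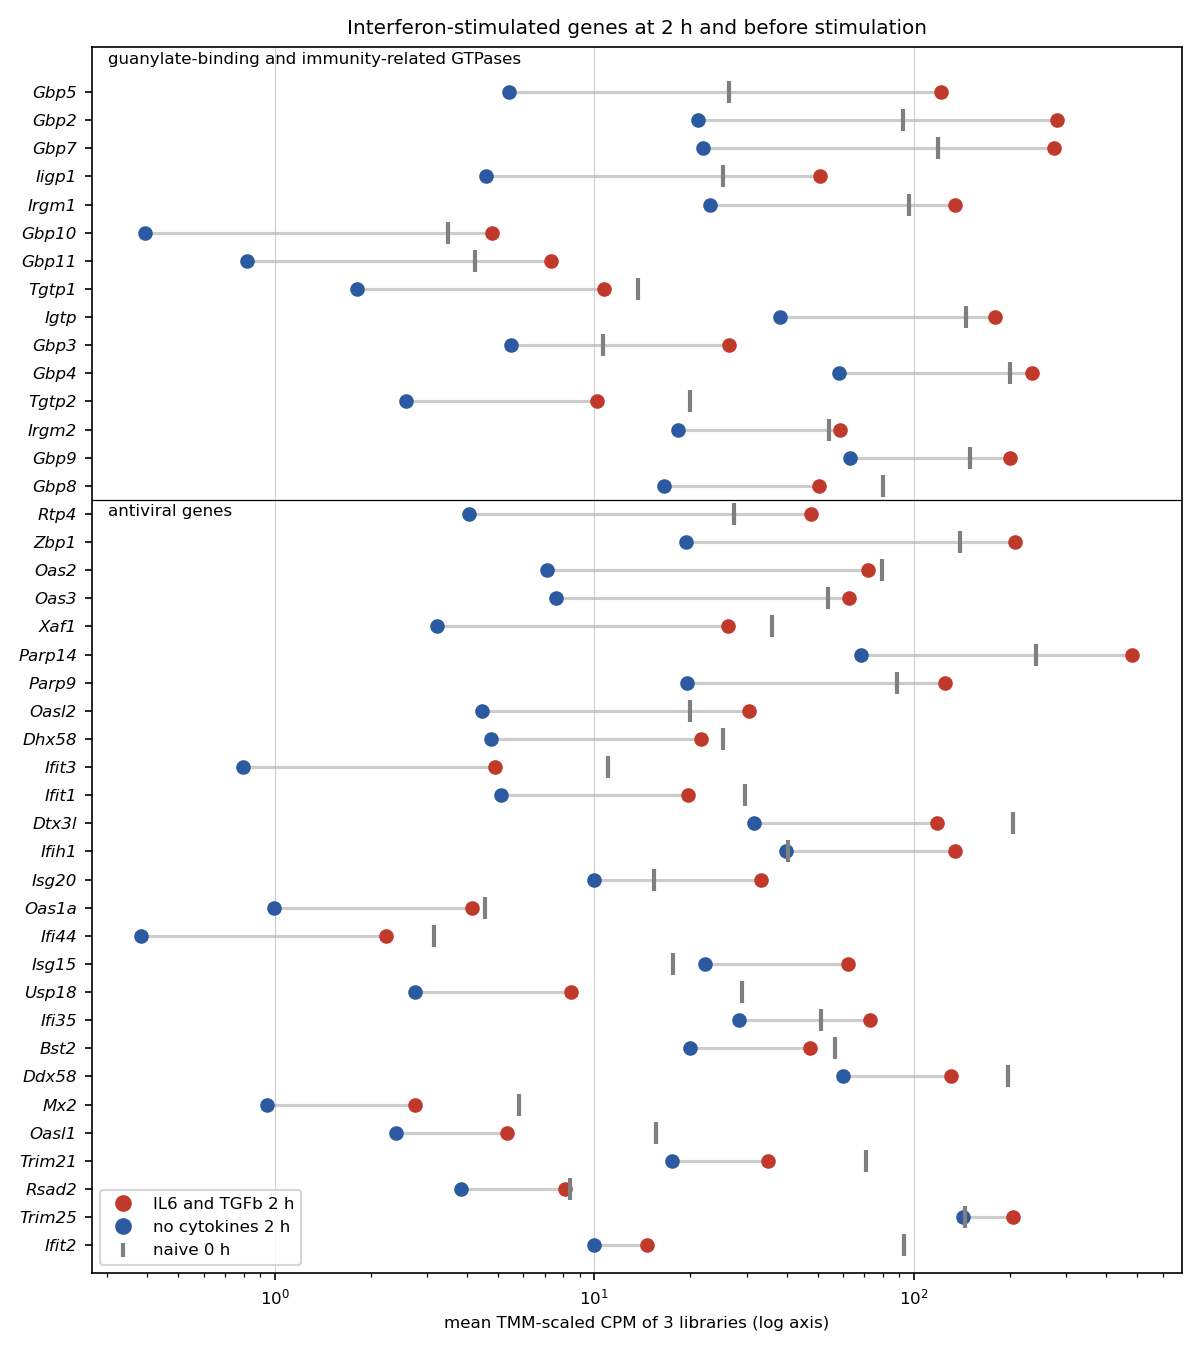
Rows are the 15 guanylate-binding and immunity-related GTPases and the 27 antiviral genes tested, and the x axis gives the mean TMM-scaled CPM of 3 libraries (log axis) with IL6 and TGFb at 2 h (red), without cytokines at 2 h (blue) and in naive cells at 0 h (grey bar). Every red point lies to the right of its blue point, and for all 15 GTPases the grey bar lies to the right of the blue point as well.

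Of 8 interferon regulatory factors 5 were higher and 1 lower, with a median of 1.17. Irf8 had 955, 1012 and 743 CPM with IL6 and TGFb, against 52.8, 57.5 and 65.1 CPM without, and a naive mean of 12.2 CPM. This factor is best known from myeloid and B cells, and it also restrains Th17 differentiation in mice. All treated libraries lay far above all controls, with a change of 3.93 ± 0.10 (limma adjusted p = 8.58e-12). Irf1, an interferon-induced factor, had 248, 176 and 173 CPM with the cytokines, against 73.1, 56.2 and 86.7 CPM without, a change of 1.46 ± 0.11. Irf7, the amplifier of type I interferon genes, had 133, 89.5 and 105 CPM with the cytokines, against 24.0, 21.9 and 28.6 CPM without. It was higher by 2.10, and Irf9, a DNA-binding subunit of the ISGF3 complex, by 1.59.

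Antigen processing and MHC class I genes rose together by smaller amounts: 16 of 17 were higher and none lower, with a median of 0.61, and 13 were higher without the course term. Nlrc5, the transactivator of MHC class I genes, had 884, 811 and 671 CPM with IL6 and TGFb, against 329, 353 and 285 CPM without, a change of 1.28. Tap1, a subunit of the peptide transporter, had 324, 285 and 252 CPM with the cytokines, against 127, 109.8 and 117 CPM without. It changed by 1.27 and stayed below the naive mean of 403 CPM. Psmb9, a subunit of the immunoproteasome, was higher by 1.16, Tapbp, the gene of tapasin, by 1.05, Tap2 by 0.75, the peptide-trimming enzyme gene Erap1 by 0.69 and B2m, the light chain of MHC class I, by 0.30. H2-K1, a heavy chain, was not called (limma adjusted p = 0.164).

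The letters shown in the promoters above were counted in every window that RefSeq gives for a tested gene, from 250 bases before to 50 after the start. Of the 12003 genes tested, 8396 had at least 1 window, 10682 windows in all. GAAANNGAA was held by 7.23% of these windows, by 10.7% of those of genes called higher, by 28.1% of those of genes higher by at least 2 and by 5.07% of those of genes called lower. TTCNNNGAA was held by 6.93%, 9.4%, 20.2% and 5.24% of the same sets. CAGACA, the letters of a SMAD site, was held by 15.7% of all windows, 15.7% of windows of genes called higher, 21.3% of those higher by at least 2 and 15.8% of those called lower. All 9 GTPase genes with a window held GAAANNGAA, and 6 held TTCNNNGAA. Of 19 antiviral genes with a window, 12 held GAAANNGAA and 5 held TTCNNNGAA, and 4 of 18 STAT3 target genes with a window held TTCNNNGAA. Of 8 TGFb target genes with a window 3 held CAGACA, in 4 of 13 windows (30.8%). For Stat3, Il6st, Batf, Tbx21, Mxd1 and Elovl6 no match to any of the 3 motifs was found. That says only that those letters were not found in the windows searched, and a gene without a window would also give no match. In 82 windows both STAT and interferon letters were present, and in 19 of them the matches overlapped.

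Cytokine genes were mostly lower with IL6 and TGFb than without cytokines, 11 of 17 against 3 higher, with a median of -0.55. Their summed level was 2620 to 3240 CPM with IL6 and TGFb, against 4140 to 4820 CPM without and 969 to 1070 CPM in naive cells. With no course term, 8 were lower and 1 was higher, and without course 2 11 were lower and none higher. Tnfsf14, which encodes LIGHT, had 17.7, 21.7 and 28.5 CPM with IL6 and TGFb, against 63.6, 75.4 and 84.0 CPM without. Every treated library lay below every control, by 1.71 ± 0.06 on the log2 scale (limma adjusted p = 4.03e-10). Ltb, which encodes lymphotoxin beta, had 180.3, 139 and 189 CPM with the cytokines, against 400.3, 332 and 369 CPM without, a change of -1.12. Lta was lower by 0.90 and Tnfsf11, the gene of RANKL, by 0.87. Csf2, the gene of GM-CSF, had a change of -1.04. It was not picked by the naming rule given under processing, which needs a call and 5 CPM or more. The value of Csf2 is therefore less certain.

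Tnf had 706, 616 and 802 CPM with IL6 and TGFb, against 1033, 957 and 1107 CPM without, a change of -0.55 with no overlap. Il2, the T cell growth factor, had 357, 264 and 315 CPM with the cytokines, against 419, 318 and 349 CPM without. It was lower in each course by a small amount (-0.21 ± 0.04, limma adjusted p = 0.00112), but the groups overlapped and without the course term the adjusted p was 0.359. Ifng, the Th1 cytokine, was called higher by 0.59 ± 0.20 (limma adjusted p = 0.0389), and without the course term its adjusted p was 0.146.

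Cytokine receptor genes went both ways, with 10 of 21 higher and 6 lower and a median of 0.08, or 7 higher and 1 lower without the course term. The rises included Il1r1, given above, and receptors of common gamma chain cytokines and of the IL12 and IL18 families. Without course 2 only 3 of the list were lower, and the median was 0.01 to 0.16 when 1 course was left out. Il12rb1, the chain shared by the IL12 and IL23 receptors, had 15.5, 19.4 and 25.5 CPM with IL6 and TGFb, against 1.51, 1.80 and 4.59 CPM without. The change was 2.82 ± 0.14 (limma adjusted p = 6.87e-09) without overlap. Il2ra, the high-affinity IL2 receptor chain, averaged 1149 CPM with the cytokines and 576 CPM without, a change of 0.99. Il2rb was higher by 1.33, at 198 CPM against 78.5 CPM without cytokines, Il15ra by 1.51, Il18rap by 1.55 and its partner chain Il18r1 by 1.00.

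Chemokine and homing genes were mostly lower, 8 of 14 with 3 higher and a median of -0.46, and without the course term 4 were lower and 2 higher. Cxcr5, which guides T cells to B cell follicles, was the main exception, with 72.6, 78.3 and 62.5 CPM with IL6 and TGFb, against 7.11, 8.94 and 8.81 CPM without. Its libraries were far apart and the change was 3.03 ± 0.09 (limma adjusted p = 4.29e-11). Cxcl10, an interferon-induced chemokine, had 10.2, 6.27 and 5.95 CPM with the cytokines, against 3.44, 1.80 and 3.50 CPM without, a change of 1.23. Cxcr4 was lower by 1.09, Ccr4, a receptor of Th2 and regulatory T cells, by 1.01, and Ccr7, which guides cells into lymph nodes, by 0.90. The libraries of Ccr7 overlapped, and without the course term its adjusted p was 0.124.

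Among genes of the immediate response to the T cell receptor, more were higher than lower. Of 18 AP-1, EGR and NR4A genes 8 were higher and 2 lower, with a median of 0.07, and without the course term 5 were higher and none lower. Fos, Jun, Egr2, Nr4a1, Nr4a2, Nr4a3 and Myc were not called, nor was the early surface marker Cd69, although a missed call does not show that levels were equal. Batf, described above, was the largest rise of the list at 3.68, and Junb was higher by 0.91. Fosl2, an AP-1 factor of Th17 cells, had 4256, 3817 and 3457 CPM with IL6 and TGFb, against 2695, 2640.0 and 2415 CPM without, a change of 0.57 with no overlap. Jund was higher by 0.83.

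Feedback and costimulation genes tended to be lower, 11 of 20 with 5 higher and a median of -0.25, or 7 lower and 3 higher without the course term. Cd28, the main costimulatory receptor, had 219, 204 and 232 CPM with IL6 and TGFb, against 567, 491 and 424 CPM without. Every treated library was lower, by 1.17 on the log2 scale, and lay below the naive mean of 286 CPM. Tnfrsf9, which encodes 4-1BB, had 39.9, 44.2 and 61.4 CPM with the cytokines, against 117, 127 and 157 CPM without, a change of -1.47. The phosphatase genes Dusp1 and Dusp6 were lower by 0.96 and 0.84, and Cd5, a brake on T cell receptor signalling, by 0.55. The rises of this list included the inhibitory receptor genes Lag3 by 2.43, Ctla4 by 0.97 and Pdcd1, the gene of PD-1, by 0.64.

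Of 15 NF-kB factors and inhibitors 4 were higher and 7 lower, with a median of -0.10, against 15.8% higher and 18.9% lower over all tested genes. But without the course term only 1 of the list was higher and 1 lower, and without course 2 the split was 4 higher and 4 lower. Rel, the gene of c-REL, had 1620.0, 1522 and 1505 CPM with IL6 and TGFb, against 2195, 2122 and 2001 CPM without, a change of -0.44 with no overlap. Tnfaip3, which encodes the inhibitor A20, was lower by 0.53 and Birc3 higher by 0.55, both with overlapping libraries. Genes of naive and quiescent T cells were lower in 10 of 18 cases and higher in 5, with a median of -0.19. Without the course term 3 were lower and 1 higher. Klf3, a KLF family repressor, had 41.9, 36.5 and 39.8 CPM with IL6 and TGFb, against 81.2, 71.9 and 70.2 CPM without, a change of -0.91 without overlap. Satb1, a genome organiser, and the antiproliferative gene Btg2 were higher, by 0.75 and 0.55. Slamf6, a lymphocyte receptor from the list of surface markers below, was lower by 0.88. Without that term the adjusted p of Satb1, whose libraries overlapped, was 0.0843 and that of Slamf6 was 0.0667. Lef1, a partner of TCF1, was lower by 0.42, with overlapping libraries and an adjusted p of 0.154 without that term.

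The medians of the metabolic lists were small, and each list held genes called higher and genes called lower. Background shares over all tested genes were 15.8% higher and 18.9% lower. Glycolysis and hypoxia genes were higher in 5 of 17 cases and lower in 5, with a median of -0.05 that was 0.07 without course 3. Without the course term 5 were higher and 2 lower. Summed over that list, the level was 4440 to 4870 CPM with IL6 and TGFb, against 3050 to 3350 CPM without cytokines. Hk1, the first enzyme of glycolysis, had 451, 445 and 319.7 CPM with IL6 and TGFb, against 107, 113 and 104 CPM without. It changed by 1.89 with wide separation. Its relative Hk2 was higher by 1.52, Ldha, lactate dehydrogenase, by 0.92, Pkm, pyruvate kinase, by 0.75, and Egln3, a HIF prolyl hydroxylase, by 2.28. The lactate transporter gene Slc16a3 was lower by 1.13.

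Elovl6, an elongase of long-chain fatty acids, had 312, 257 and 174 CPM with IL6 and TGFb, against 7.44, 6.68 and 6.29 CPM without. Course 1 was highest and course 3 lowest in both groups, and all treated libraries lay far above all controls. The log2 fold change was 5.05 ± 0.09 (limma adjusted p = 1.12e-12), and naive cells averaged 22.4 CPM. The rest of the sterol and fatty acid list did not rise with it. Of 22 tested genes 3 were higher and 7 lower, with a median of -0.08, against 15.8% higher and 18.9% lower over all tested genes. The counts were 1 higher and 3 lower without the course term and 3 higher and 4 lower without course 3. Mvk, mevalonate kinase, was the largest fall of the list, by 1.41. Hmgcs1, which makes the precursor of mevalonate, was lower by 0.53, and Srebf2, the master regulator of sterol synthesis, by 0.27. Scd2, a fatty acid desaturase, was called lower by 0.81, with 5.75, 20.9 and 13.4 CPM with IL6 and TGFb against 22.5, 18.4 and 22.3 CPM without, so the libraries overlapped. Its adjusted p was 0.226 without the course term and 0.101 without course 3. Of 15 amino acid stress and transport genes 4 were higher and 1 lower, with a median of 0.03 that was -0.01 without TMM scaling, and none was called without the course term, while without course 2 only 1 was higher.

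Survival genes were split, with 7 of 19 higher and 7 lower and a median of 0.05 (-0.01 without course 3), or 5 higher and 4 lower without the course term. Background shares over all tested genes were 15.8% higher and 18.9% lower. Fas, the death receptor, was higher by 1.57, the caspase genes Casp4 and Casp8 by 0.83 and 0.74, and Tnfsf10, the gene of the death ligand TRAIL, by 0.68. Fasl, the ligand of Fas, was lower by 0.88, and Bcl2a1d, a BCL2 relative with near-identical copies, by 1.08. Among 14 surface markers 7 were higher and 6 lower, with a median of 0.14, or 5 higher and 3 lower without the course term. The median was -0.07 without course 1 and 0.05 without course 2. Ly6a, which encodes Sca-1 and responds to interferon, had 539.8, 584 and 453 CPM with IL6 and TGFb, against 11.9, 18.6 and 18.9 CPM without. All treated libraries were far above the controls and above the naive mean of 70.1 CPM, with a change of 4.97 ± 0.11 (limma adjusted p = 5.6e-12). Ephb2, an ephrin receptor kinase, had 41.2, 45.1 and 27.9 CPM with the cytokines, against 0.800, 1.85 and 1.13 CPM without, a change of 4.47 ± 0.15. Naive cells averaged 1.12 CPM, close to the controls. Ly6c1 was higher by 2.08. Tigit, an inhibitory receptor, was lower by 1.07, and Cd44, a marker of activated T cells, by 0.75.

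**Figure D4:**
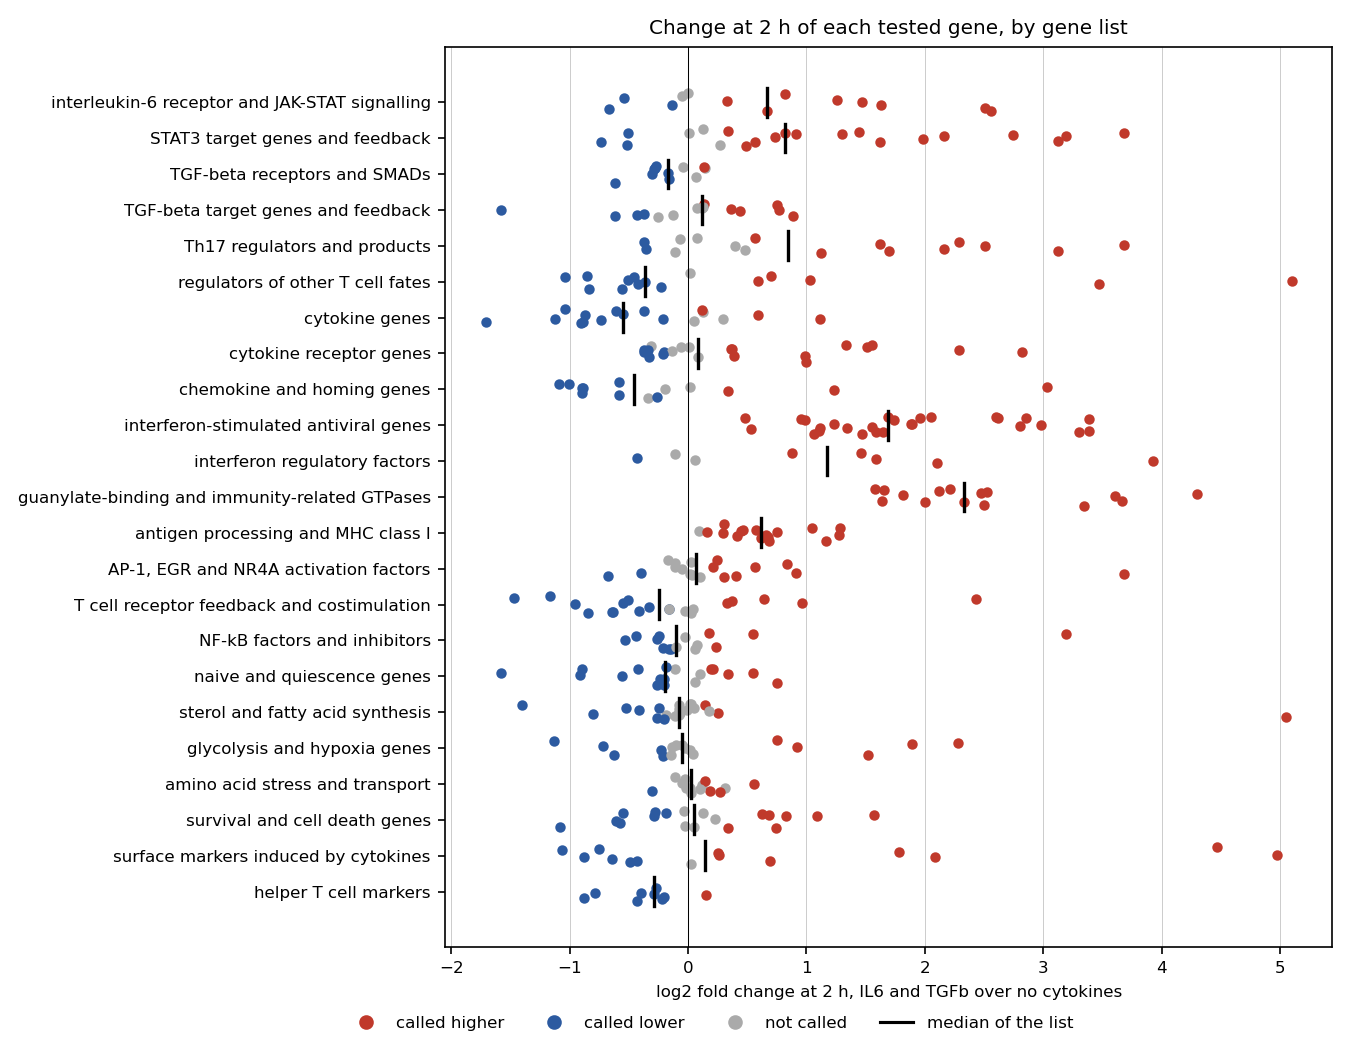
Each point is 1 tested gene of the list named on the left, and the x axis gives its log2 fold change at 2 h, IL6 and TGFb over no cytokines, with red for called higher, blue for called lower, grey for not called and a black bar for the list's median. All antiviral genes and GTPases lie to the right of 0 with medians of 1.69 and 2.33, while the medians of cytokine genes and of helper T cell markers are -0.55 and -0.29.

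Helper T cell markers themselves were lower in 8 of 9 cases and higher in 1, with a median of -0.29. Without the course term 5 were lower and none higher. Their summed level was 3760 to 3970 CPM with IL6 and TGFb, 4780 to 4920 CPM without cytokines and 5610 to 5900 CPM in naive cells. Cd4 had 280.1, 254 and 284 CPM with the cytokines, against 527, 506 and 474 CPM without, a change of -0.88 ± 0.05 (limma adjusted p = 1.55e-08), and a naive mean of 1053 CPM. Thy1 had 189, 166 and 183 CPM with IL6 and TGFb, against 316, 302 and 309 CPM without, a change of -0.79. In neither gene did the groups overlap. The part that the share of T cells in the cultures had in these differences was not tested.

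Markers of other cells were low in both groups. Myeloid markers summed to 5.95 to 13.3 CPM with IL6 and TGFb, 8.14 to 16.2 CPM without and 25.9 to 34 CPM in naive cells, with 0 higher and 1 lower of 4 tested. B cell markers summed to 6.2 to 12.7 CPM with the cytokines and 6.54 to 12 CPM without, and 0 of 2 tested were called. CD8 markers summed to 8.79 to 11.3 CPM with the cytokines and 10.7 to 15.8 CPM without, and 1 of 2 tested was lower. Red cell and platelet markers summed to 31.5 to 41.3 CPM with the cytokines and 30.6 to 45.4 CPM without, and 0 of 5 tested were called. The sum over NK and gamma-delta T cell markers was the exception, at 3.62 to 6.92 CPM with IL6 and TGFb against 0.706 to 1.8 CPM without cytokines and 2.68 to 2.98 CPM in naive cells. The single tested gene of that list, the granzyme gene Gzma, had 2.54, 4.67 and 2.59 CPM with the cytokines, against 0.377, 0.0514 and 0.361 CPM without. Its change was 2.29, but Gzma reached the 1 CPM needed for the test only in the libraries with IL6 and TGFb. With 1 course left out too few libraries passed that level. The NK cell genes Ncr1 and Klrb1c were near 0 in both groups. Ncr1 had a mean of 0.0278 CPM with the cytokines and 0.0514 CPM without, and Klrb1c had 0.0977 CPM with the cytokines and 0.0829 CPM without. Sox13, a gamma-delta T cell gene of the same list, was below the level needed for the test. Its reads were mainly in the libraries with the cytokines, as given under other observations. The remaining members of the list are not given singly.

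Large changes also fell outside the lists. Mxd1, which encodes a MAX partner that opposes MYC, had 1350, 1321 and 797 CPM with IL6 and TGFb, against 80.2, 80.8 and 62.0 CPM without. Course 3 was lowest in both groups, and the change was 3.92 ± 0.06 (limma adjusted p = 8.06e-13). Etv6, an ETS family repressor, had 261, 249.6 and 127 CPM with the cytokines, against 17.9, 19.7 and 17.9 CPM without, a change of 3.42. Epb4.1l4b, a member of the band 4.1 family of membrane skeleton proteins, had 12.7, 21.98 and 7.37 CPM with the cytokines, against 0.141, 0.411 and 0.258 CPM without, a change of 4.12. It reached the 1 CPM needed for the test only in the libraries with the cytokines, and could not be tested with 1 course left out. Notch1, a receptor that sets T cell fates, had 1874, 1901 and 1794 CPM with IL6 and TGFb, against 438, 485 and 508 CPM without, a change of 1.96. Rnf213, a large ubiquitin ligase, had 1738, 1697 and 1699 CPM with the cytokines, against 218, 238 and 284 CPM without, a change of 2.80. Neither group of any of these genes overlapped the other. By difference in level the list of rises also held Ablim1, an actin-binding protein, higher by 2.02, Rapgef6, an activator of RAP GTPases, higher by 1.75, and Actg1, the gene of gamma actin, higher by 1.30.

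Falls were fewer among the large changes. Lad1, which encodes an anchoring filament protein, had 5.62, 4.67 and 5.19 CPM with IL6 and TGFb, against 29.9, 16.2 and 22.98 CPM without. Its change of -2.02 ± 0.12 (limma adjusted p = 2.21e-08) was the only fall of at least 2. Itm2a, a membrane protein of activated T cells, had 222, 235 and 264 CPM with the cytokines, against 673, 729 and 689.7 CPM without, a change of -1.54 with wide separation. Phldb1 was lower by 1.96, Sytl2, a vesicle transport protein, by 1.86, Gpr174, a receptor for lysophosphatidylserine, by 1.66, and Xdh, an enzyme of purine breakdown, also by 1.66. St8sia1, a sialyltransferase, Mmd, Adam19, a metalloprotease, Ppp2r3a, a subunit of protein phosphatase 2A, and Pde4a, which degrades cAMP, were lower by 1.51 to 1.61. Among abundant genes the falls included Jarid2, a cofactor of Polycomb repression, by 1.26, and Arhgef3, an activator of RHOA, by 0.98. Smaller falls were those of Dusp2 by 0.42, the chromatin remodeller gene Chd4 by 0.40 and the myosin gene Myh9 by 0.39.

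The 2 h effect was set between those at 1 h and 4 h in the same 3 courses. Between 1 h and 2 h the effect changed in 2358 of 13021 genes tested, upwards in 944 (7.25%) and downwards in 1414 (10.9%), by a test of the difference itself. Between 2 h and 4 h it changed in 3143 of 12466 genes, upwards in 1705 (13.7%) and downwards in 1438 (11.5%). The first count was 1302 without course 1 and 848 without course 2, and the second was 1308 without course 2. In most interferon-stimulated genes the effect was smaller at 4 h: it was lower at 4 h than at 2 h in 26 of 27 antiviral genes and all 15 GTPases, and higher in none. The median log2 ratio of the antiviral genes was 0.24 at 0.5 h, 1.42 at 1 h, 1.69 at 2 h, 0.39 at 4 h and 0.07 at 6 h. For the GTPases it was 0.81, 2.18, 2.33, 0.51 and 0.2 at the same times. Some genes kept or regained an effect: Gbp2 had log2 ratios of 1.404 at 4 h, 0.12 at 24 h and 2.82 at 72 h, Gbp5 had 2.29, -1.18 and 1.87, and Ly6a had 4.59, 3.90 and 4.57. STAT3 targets had medians of 0.32, 0.68, 0.82, 0.9 and 0.78. For TGFb receptors and SMADs the effect rose between 2 h and 4 h in 6 genes and fell in none, and for TGFb targets it rose in 8 and fell in 1.

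Single genes followed several courses. Ephb2 had by far its largest effect at 2 h. Its means were 1.67, 38.1 and 2.88 CPM with IL6 and TGFb at 1, 2 and 4 h, against 1.51, 1.26 and 1.35 CPM without cytokines. Later log2 ratios of Ephb2 were smaller, with 0.89 at 6 h, 1.28 at 24 h, 0.07 at 48 h and 1.43 at 72 h. The differences between times were 4.31 ± 0.22 from 1 h to 2 h (limma adjusted p = 1.6e-07) and -3.57 ± 0.20 from 2 h to 4 h (2.54e-08). Gbp7 averaged 389, 274 and 21.6 CPM with IL6 and TGFb, against 51.9, 21.9 and 10.9 CPM without, so its treated level was already falling at 2 h. Il21 averaged 13.9, 63.0 and 157 CPM with the cytokines, against 7.61, 6.83 and 3.26 CPM without, and its effect grew at each step. Cxcl10 averaged 57.2, 7.49 and 2.39 CPM with IL6 and TGFb, against 5.62, 2.91 and 2.70 CPM without. Its effect had passed its height by 2 h. Lad1 averaged 4.01, 5.16 and 123.5 CPM with IL6 and TGFb, against 3.31, 23.01 and 473 CPM without, so at 2 h it had climbed in the controls and not with the cytokines.

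**Figure D5:**
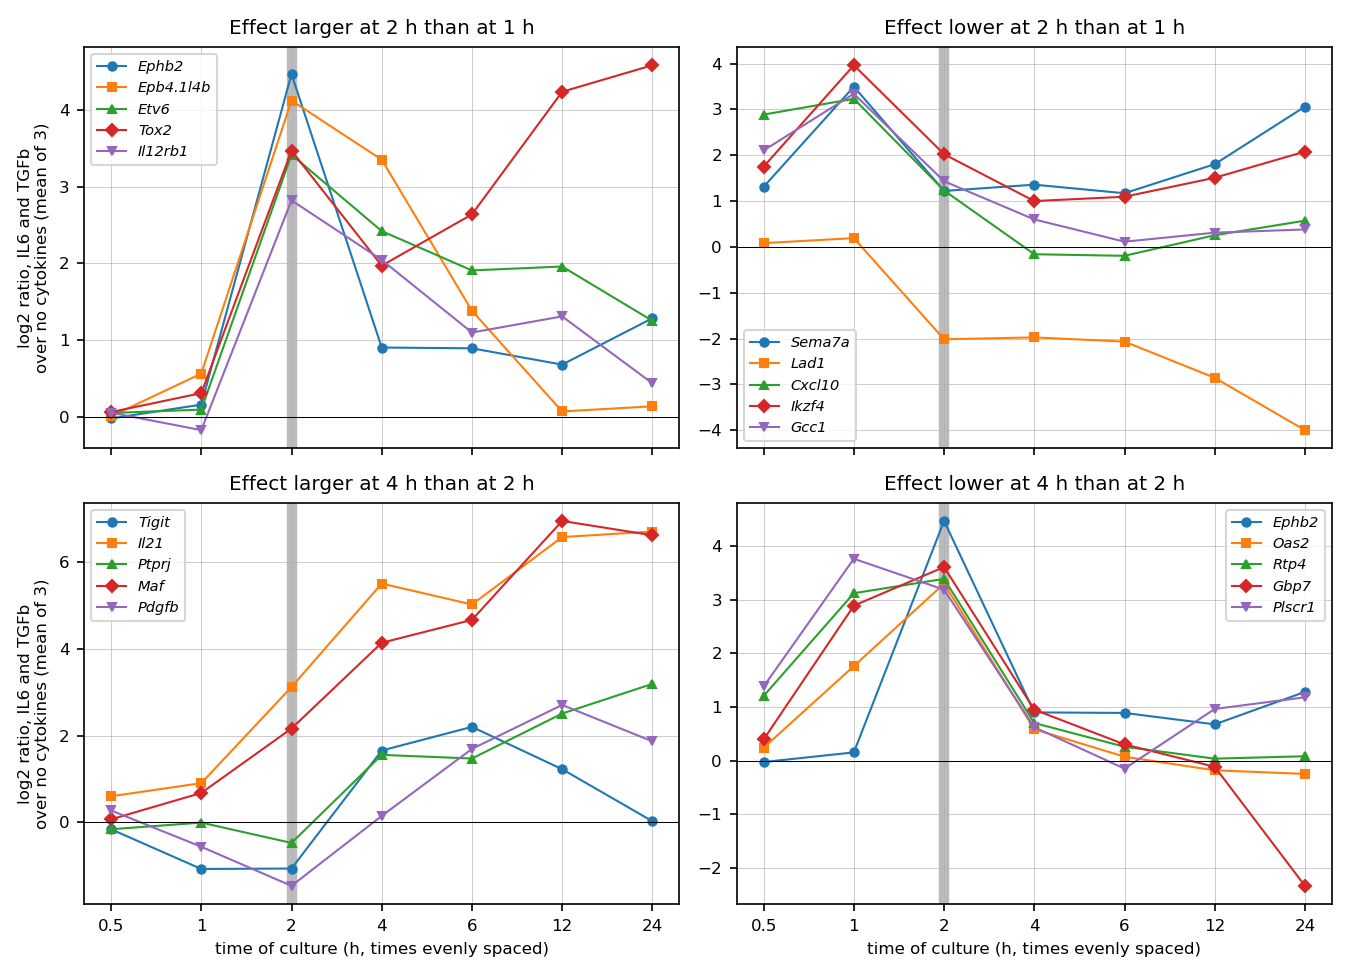
The 4 panels give the mean log2 ratio over 3 courses, IL6 and TGFb over no cytokines (y axis), at 0.5 to 24 h of culture (x axis, times evenly spaced, 2 h in grey), for genes whose effect differed most between 1 h and 2 h (top) and between 2 h and 4 h (bottom). Ephb2 peaks at 2 h with 4.47 between 0.16 at 1 h and 0.90 at 4 h, Gbp7, Oas2, Rtp4 and Plscr1 fall by 4 h, and Il21 and Maf stand higher at 12 h than at 2 h.

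Courses 4 to 6 held 9 further libraries at 2 h in which IL1b, IL21 or both were added to IL6 and TGFb. They were made in other courses and are not matched to the controls used here, so only their levels are given. Stat3 had 2505, 2662 and 3016 CPM as lowest, median and highest of the 9. Tbx21 had 196, 249 and 368 CPM, and Gbp7 had 349, 411 and 551 CPM. For Stat3 the range reached above the 3 libraries with IL6 and TGFb alone, for Tbx21 it included part of theirs, and for Gbp7 all 9 were higher. Ephb2 had 14.7, 23.8 and 46.4 CPM, a range that held all 3 of those libraries.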

How the data were processed

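RNA was measured by RNA-seq of cultured or naive T cells, and the authors deposited a table of CPM values per gene and library, not raw counts. The submitters' processing notes name TopHat, HTSeq, mm9 and GRCh37, without versions or roles. The sources used here do not say whether counting used the strand, so overlapping and antisense genes cannot be told apart. Of the deposited CPM values, 100% were whole reads after division by the smallest value of their column (tolerance 0.001). Counts recovered this way served only for edgeR 4.0.16 and DESeq2 1.42.0 as alternatives, which made 4187 and 2755 calls.

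CPM were divided by TMM factors, estimated within each time over courses 1 to 3 after seeing the data. Genes with at least 1 CPM in 3 of the 6 libraries were tested on log2(CPM + 0.5) with limma 3.58.1 in R 4.3.3 (empirical Bayes with a mean trend), with the course as a block and Benjamini-Hochberg adjustment over all tested genes. Genes were called at an adjusted p under 0.05. Fold changes of low genes are understated on that scale. Same-numbered libraries deviated together, with correlations of 0.58, 0.492 and 0.487. Those for different numbers were -0.389 to -0.0963. Each gene was centred on its 3 libraries of a group, which pushes these below 0 when the former are positive. They are therefore not separate evidence. The numbers from the titles were taken to pair the libraries, and the paired fit is the one reported (1578 calls with no replicate block). No columns were identical, and replicates differed by 14.8 to 30.3 times Poisson noise. P-values measure the spread between these libraries, which may be in part technical.

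Named genes were the 14 largest rises and 14 largest falls by fold change at 5 CPM or more without overlap, the 8 largest each way by difference in level, a fixed set of pathway genes, up to 6 called members of each list, and the 5 largest differences each way between times, passing over clone and predicted-gene symbols. Other list members in the text, among them Igtp, Tnf, Socs1, Il1r1, Gzma and Lef1, were chosen after their values were seen. Members and lists were chosen with earlier results of these data known. Promoter windows came from RefSeq on GRCm38.p6, matched by symbol. The analysis was tested on simulated data.
Results of a few genes are not reported here.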

Additional observations from a re-analysis of the deposited data

Results flagged for a closer look

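The effect of IL6 and TGFb at 2 h differed from that at 1 h or 4 h, by a limma test of the difference, most in the following genes. Values are differences of log2 effects, later minus earlier. Between 1 h and 2 h the effect grew by 4.31 in Ephb2, 3.56 in Epb4.1l4b, 3.33 in Etv6, 3.16 in Tox2 and 3.00 in Il12rb1. Ephb2 had log2 ratios of 0.16, 4.47 and 0.90 at 1, 2 and 4 h.

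The effect fell by 2.28 in Sema7a, a membrane-bound semaphorin, fell by 2.21 in Lad1 and fell by 2.00 in Cxcl10. It fell by 1.94 in Ikzf4, which encodes the Ikaros family factor EOS, and fell by 1.91 in Gcc1, a Golgi protein. Lad1 alone of these was lower with the cytokines at 2 h, and the other 4 were still higher.

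Between 2 h and 4 h the effect grew by 2.72 in Tigit, 2.39 in Il21, 2.03 in Ptprj, a receptor phosphatase, 1.98 in Maf and 1.61 in Pdgfb, a growth factor gene. Tigit was lower with the cytokines at 2 h, with a log2 ratio of -1.07, and higher at 4 h, with 1.66. The effect fell by 3.57 in Ephb2, and the changes were -2.71 in Oas2, -2.69 in Rtp4, -2.66 in Gbp7 and -2.56 in Plscr1, a phospholipid scramblase that interferon induces. Gbp7 had log2 ratios of 2.89, 3.61 and 0.95 at 1, 2 and 4 h.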

How the results depend on the processing

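The count of called genes at 2 h (4167) moved by over 1.5 times under 5 alternatives: 1578 with no replicate block, 1791 with all 57 libraries in one fit and no block, 1894 with all 57 and the block, 2755 with DESeq2 and 2516 without course 2. When 1 course was left out it was 2516 to 3820. The count of genes whose effect differed between 1 h and 2 h was 848 to 2213, lowest without course 2 and 1302 without course 1, and between 2 h and 4 h it was 1308 to 2747. Against naive cells the counts were 9009 to 9489 with IL6 and TGFb and 8867 to 9182 without cytokines when 1 course was left out. Counts of 4187 with edgeR, 3355 with no filter, 3805 at 5 CPM, 4155 and 4152 at other pseudocounts, 4233 without TMM scaling (1502 higher, 2731 lower) and 4016 with TMM over all 141 libraries (1468 higher, 2548 lower) stayed within 1.5 times. The median over all genes was -0.044 and -0.042 under those last 2 scalings. Without TMM scaling, 64.5% of the genes whose effect differed between 2 h and 4 h were higher, against 54.2%.

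Of 192 results, none that was called changed direction under any alternative tried. With all 57 libraries in one fit 49 fell below the threshold without the block and 45 with it, with no block in the 6 libraries 34, with DESeq2 and with no filter 10 each, with TMM over all 141 libraries 3, with no TMM scaling 4, and without courses 1, 2 and 3, in that order, 6, 11 and 5. Without course 1, 1 value that was not called changed sign. Ifng, Ier3, Skil and Shmt2 lost their calls under 8 alternatives each. The cause of these losses was not tested. Depth of 19.3 to 28.9 M reads limits genes near 1 CPM, such as Il22 and Il23r.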

Other observations

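Several genes below the level needed for the test had reads mainly with IL6 and TGFb. Il22, a Th17 cytokine, had 0.291, 0.652 and 1.36 CPM with IL6 and TGFb, against 0, 0 and 0.258 CPM without cytokines. Mlkl, the executor of necroptosis, had 0.833, 0.903 and 0.648 CPM with the cytokines, against 0.0941, 0.103 and 0.155 CPM without. Cebpd, a factor of the acute phase response, had 0.750, 0.853 and 0.530 CPM with IL6 and TGFb, against 0.141, 0.257 and 0.103 CPM without. Sox13, a factor of gamma-delta T cells, had 0.583, 1.91 and 1.24 CPM with the cytokines, against 0.0941, 0.257 and 0.155 CPM without. In each gene all 3 libraries with the cytokines lay above all 3 without. These genes were picked after their values were seen and carry no test.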
